A study of Solanum tuberosum with 100 samples.

Results

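Intermediate bruising tubers were compared with low bruising tubers, using 67 of the 100 potato samples whose RNA was sequenced. The 26 intermediate samples are those that the sample titles set apart from the comparison of high with low bruising, and the scores of their 3 tubers summed to 4 or 5. The 41 low bruising samples had a sum of 0 to 3, and the remaining 33 samples formed the high bruising group. Each sample was a different genotype of tetraploid Solanum tuberosum, the progeny of Crop52 and of a second parent that differed between 11 crosses. All tubers of all groups received the same treatment, a lead weight dropped through a pipe onto the tuber, and there were no tubers without it. Tissue was collected at the site of impact 2 h later and the tissue of 3 tubers was pooled, whereas the bruises were scored the next day by eye from images. The 2 groups therefore differ in genotype and in the bruise that formed later, not in treatment. No genotype was sequenced more than once, and the spread within a group holds differences between genotypes, plants and libraries together. The tissue was bulk tuber flesh, in which fewer cells of a type and less RNA per cell cannot be told apart.

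Blackspot bruising is a browning of the flesh below an intact skin. An impact breaks the membranes that hold polyphenol oxidases in plastids and phenolic compounds in vacuoles, and the enzymes then oxidise the phenols to quinones that polymerise into melanin. The amount of enzyme, the supply of phenols from the phenylpropanoid pathway, the strength of cell walls and the stability of lipid membranes are among the properties that have been linked to bruising.

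Intermediate samples had total counts between 7774698 and 41650152 (median 20753192) and low bruising samples between 8065444 and 37849041 (median 19370171). The mean log2 total count was 24.38 ± 0.54 (SD) against 24.16 ± 0.61 (SD). The difference in means was 0.22 (two-sided permutation test of the group labels with 100000 resamples, p = 0.134). Levels are given as CPM, the read count of a gene scaled to a common library total, with totals adjusted by edgeR's TMM method. Of the genes that mark the tuber, the Kunitz-type inhibitor KTPI (lowest sample 482 CPM) and the starch gene AGPB1 (lowest sample 311 CPM) were present in every sample. The 5 patatin genes had means of 4.83 to 1255 CPM over the 67 samples. Some tuber genes fell to low levels in single samples. Patatin 3 had no reads in 1 low bruising sample and was as low as 0.179 CPM in the intermediate group. The polyphenol oxidase POT32 fell to 0.373 CPM in a low bruising sample. Crosses were spread unevenly over the groups. Cross 2121 gave 4 intermediate samples and 1 low bruising sample, cross 2170 gave 1 and 7, cross 2165 gave 0 and 2, and the other crosses lay between these, so that 10 crosses held both groups. No library stood apart in its mean correlation with the others, which was 0.89 to 0.92 in the intermediate and 0.88 to 0.92 in the low bruising group. However, 1 intermediate sample of cross 2121 (progeny 2) had the highest intermediate value for 12 of the 35 measured candidate genes described further on. For genes of the lists described further on that lost an unadjusted p below 0.05 without this cross, values without it are given. Some values are also given without the sample.

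Few genes separated intermediate from low bruising tubers. Of 25163 genes, 6 (0.0238%) passed the threshold of 0.05 on the adjusted p-value in the quasi-likelihood test of edgeR, adjusted by the Benjamini-Hochberg method, and all 6 were higher in the intermediate group. None was lower, 1313 genes (5.22%) had an unadjusted p below 0.05, and DESeq2 and limma-voom called 0 genes with 869 and 883 unadjusted p-values below 0.05. The 6 genes are not among the genes that the study named, and 3 of them had no reads in 50% or more of the samples. Their mean levels were 1.16 to 12.7 CPM in the intermediate and 0.0610 to 1.52 CPM in the low bruising group. Their log2 fold changes, always of intermediate over low bruising and given with the standard error (SE) of the fit, were 1.74 to 5.01. In each of the 6, the highest intermediate sample alone held between 21.7% and 96.7% of the summed intermediate CPM.

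PGSC0003DMG400011251, with the largest change of the 6, was at 0 in 16 of 26 intermediate and 30 of 41 low bruising samples. Its highest intermediate sample, progeny 13 of cross 2158, had 64.1 CPM, whereas the highest low bruising sample had 0.641 CPM. The median was 0 in both groups, and all but that sample overlapped. The log2 fold change was 5.01 (SE 0.80, edgeR adjusted p = 0.000261), and without that sample it was 0.12 (edgeR adjusted p = 1.00). PGSC0003DMG400010283 was at 0 in 19 intermediate and 28 low bruising samples, with a highest value of 55.96 CPM in progeny 4 of cross 2158 and of 2.76 CPM in the low bruising group. Its log2 fold change was 3.59 (SE 0.62, edgeR adjusted p = 0.000737) and turned to -0.42 (edgeR adjusted p = 0.998) without that sample. The names and functions of these genes were not given in the sources used here. None of the 6 passed in every fit that left out 1 sample, and in a rank test, which gives a single high sample little weight, their unadjusted p-values were 0.0645 to 0.733. When each sample was left out in turn, the number of genes called lay between 4, in 25 of the 67 fits, and 19, without progeny 1 of cross 2168, with a median of 5. It was 10 or more in 11 fits, which left out that sample, progeny 4 of the same cross, progeny 3 of cross 2121, 12 of 2155, 10 of 2158, 16 of 2159, 2 and 5 of 2172, 3 and 6 of 2175, or 7 of 2177.

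When cross was added as a term, 5 genes (0.0199%) passed, 1 higher and 4 lower in the intermediate group, and 1 of them was among the 6 above. PGSC0003DMG400022822 had the smallest p of the 4 lower genes. It was at 0 in 16 intermediate and 18 low bruising samples, and its highest values were 9.22 and 46.7 CPM, both in cross 2121. The log2 fold change was -3.65 (SE 0.56, edgeR adjusted p = 0.000176) with the cross term and -1.29 (SE 0.70, edgeR adjusted p = 0.979) without it. The single low bruising sample of cross 2121 held 80.8% of the summed CPM of the low bruising group, and without that sample the fold change without the term was 1.24. Among genes with a mean of at least 1 CPM, PGSC0003DMG400030262 had the smallest p in the lower direction. It had a median of 1.06 CPM in intermediate (range 0 to 2.93) and 1.77 CPM in low bruising samples (range 0.466 to 5.36). The log2 fold change was -0.85 (SE 0.19, edgeR adjusted p = 0.0677), and -0.62 (SE 0.20, edgeR adjusted p = 0.708) with cross as a term. In crosses 2155, 2158 and 2159 alone, with that term, it was -0.44 (edgeR unadjusted p = 0.166). Its mean log2 level was lower in 9 of 10 crosses, but some of these held only 1 sample of a group, and the same samples picked the gene.

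**Figure D1:**
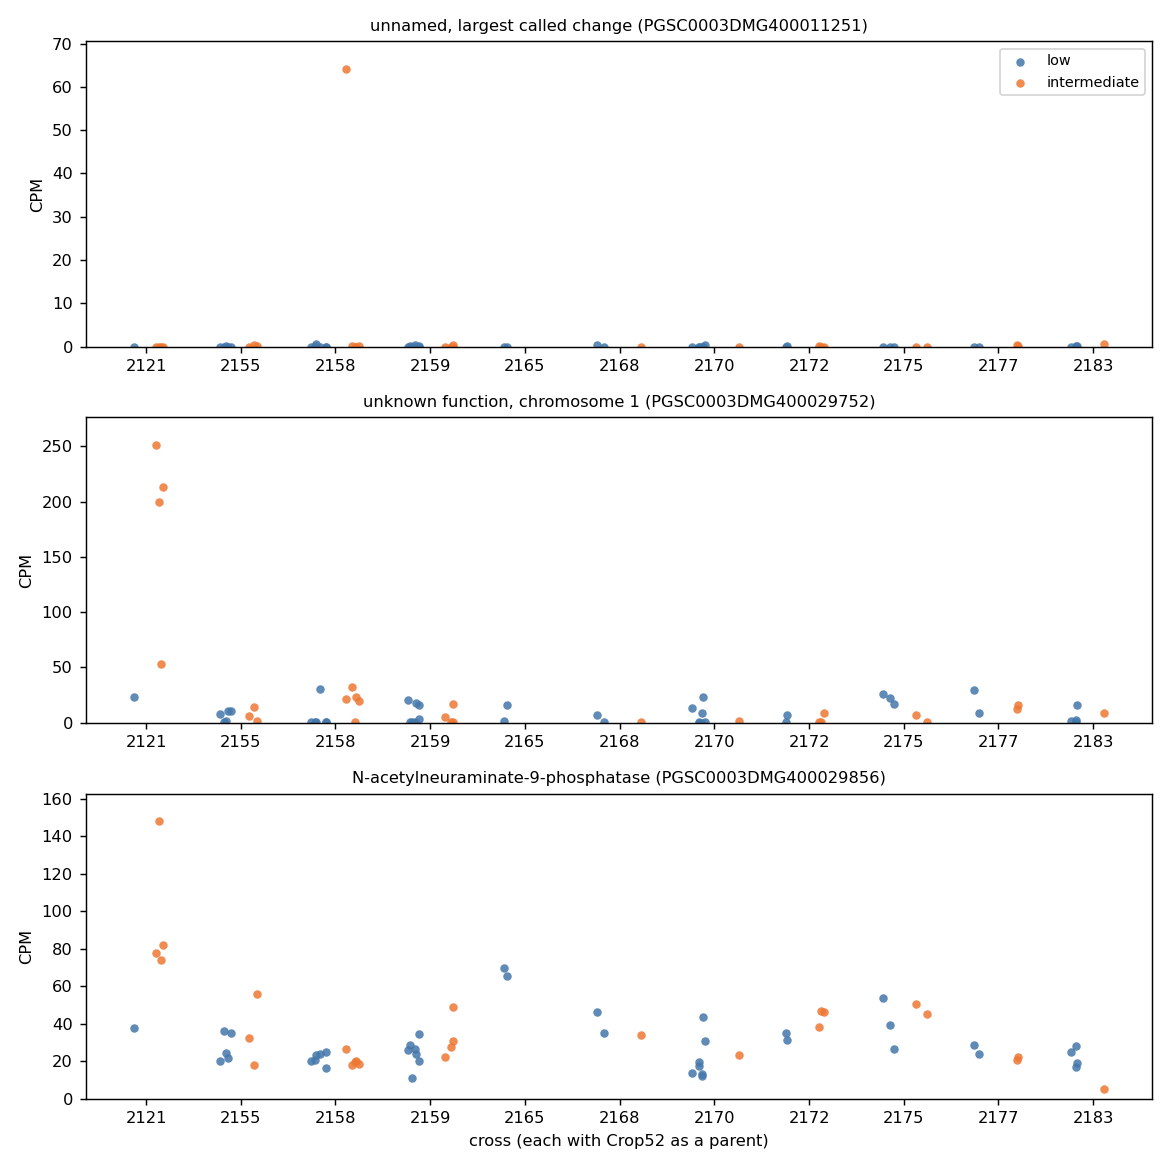
CPM of 3 genes (vertical axes) in each low bruising and intermediate sample, by cross (horizontal axis); each point is 1 sample. A single intermediate sample of cross 2158 at 64.1 CPM carried the change of PGSC0003DMG400011251, and the 4 intermediate samples of cross 2121 stood above the other intermediate samples for PGSC0003DMG400029752 and PGSC0003DMG400029856.

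The study listed 57 genes that differed between high and low bruising. The intermediate samples had no part in that choice, but the 41 low bruising samples did, so the counts that follow are not independent evidence of a direction. None of the 57 passed the adjusted threshold between intermediate and low bruising, and 20 had an unadjusted p below 0.05, of which 14 were higher and 6 lower in intermediate tubers. Over all genes tested, 2.87% and 2.35% were higher and lower at this level. The median log2 fold change of the 57 was 0.11, beside -0.00 over all genes. The list mixes genes that the study found higher and lower in high bruising tubers. Its median and its counts by direction depend on that mix, and no shift of the list is read from them. Every one of the 57 had groups that overlapped, and at most 6 of the 26 intermediate samples lay above the highest low bruising sample. The number with an unadjusted p below 0.05 was 13 with cross as a term (8 higher and 5 lower, beside 2.25% and 2.48% of all genes, 4.72% together), 17 without progeny 2 of cross 2121 (beside 4.66% of all genes), and 7 without cross 2121 (5 higher and 2 lower, beside 3.95% of all genes). Of the 20, 6 still had an unadjusted p below 0.05 without cross 2121, and these were the CC-NBS-LRR, DnaJ, transmembrane protein 50a, RecA and caffeic acid O-methyltransferase genes and PGSC0003DMG400025202. The other 14 did not.

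Defence genes were 5 of the 57, and 1 of them had an unadjusted p below 0.05, beside 5.22% of all genes. This was the CC-NBS-LRR resistance protein gene (PGSC0003DMG400008596, chromosome 10), of the family of intracellular immune receptors that recognise pathogen effectors. Its level was 0.786 to 4.18 CPM in intermediate tubers (median 2.01) and 0.571 to 2.86 CPM in low bruising tubers (median 1.42), and 20 of 26 intermediate samples lay above the low bruising median. The log2 fold change was 0.59 (SE 0.13, unadjusted p = 2.63e-05, edgeR adjusted p = 0.0601), the smallest p of the list. It was 0.63 (SE 0.14) with cross as a term and 0.55 (SE 0.14) without cross 2121, and the gene was higher in the intermediate samples of 9 of 10 crosses, cross 2183 being the exception. High bruising tubers had a median of 1.75 CPM and lay at a log2 difference of 0.00 from the intermediate group. The other 4 defence genes had negative log2 fold changes of -0.16 to -0.83 with unadjusted p-values of 0.128 or more. Among these were a gene rapidly elicited by Avr9/Cf-9 (PGSC0003DMG400010173), the resistance gene RGA3, the stigma expressed protein gene and aspartic protease inhibitor 10, at -0.83 (SE 0.71), whose intermediate level came to 94.0% from 1 sample.

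Of 5 genes of protein turnover and folding, 3 had an unadjusted p below 0.05 and all 3 were higher in the intermediate group. Over all genes, 2.87% were higher at this level. With cross as a term 1 of the 5 had such a p, beside 2.25% of all genes higher. The DnaJ gene (PGSC0003DMG400028488), a co-chaperone of Hsp70, had 0.721 to 11.1 CPM (median 5.38) against 0.504 to 11.3 CPM (median 3.02), with a log2 fold change of 0.59 (SE 0.19, unadjusted p = 0.00334). The gene of ubiquitin carboxyl-terminal hydrolase L3 (PGSC0003DMG400026229), which releases ubiquitin from its conjugates, had medians of 3.32 and 2.62 CPM and a log2 fold change of 0.42 (SE 0.15). With cross as a term that value was 0.14 (SE 0.14), and without cross 2121 it was 0.14 (edgeR unadjusted p = 0.359). The RING finger gene (PGSC0003DMG400012137), of a type that often acts as a ubiquitin ligase, had medians of 2.46 and 1.76 CPM and a log2 fold change of 0.42 (SE 0.20). Its fold change was 0.34 with cross as a term and 0.33 without cross 2121 (edgeR unadjusted p = 0.122). The NPH3 family gene and the gene of an Hsp70-interacting protein had log2 fold changes of 0.06 (SE 0.19) and -0.00 (SE 0.14). For the last gene, high bruising tubers lay lower than the intermediate group by a log2 value of -0.54 (unadjusted p = 0.000699).

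Phenol and pigment genes were 2 of the list. Caffeic acid O-methyltransferase II (PGSC0003DMG400013342, chromosome 11), which methylates precursors of lignin, was at 0 in 6 intermediate and 10 low bruising samples. Its highest values were 7.56 and 36.0 CPM and its medians 0.129 and 0.230 CPM, and the intermediate range lay within the low bruising range. The fold change was -1.96 on the log2 scale (SE 0.62, unadjusted p = 0.00230, edgeR adjusted p = 0.520), and -1.68 (SE 0.50) with cross as a term. The intermediate group was lower in 7 of 10 crosses. The highest low bruising values came from cross 2175, where the medians were 3.91 CPM in 2 intermediate and 31.8 CPM in 3 low bruising samples. Anthocyanin synthase (PGSC0003DMG400022746), of the flavonoid branch that makes red and blue pigments, had medians of 1.33 and 1.16 CPM and a log2 fold change of 0.15 (SE 0.38). Its value was -0.66 without progeny 6 of cross 2170.

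Transport genes were 9 of the 57, and 7 had a negative log2 fold change. The oligopeptide transporter StOPT8 (PGSC0003DMG400013297) had 38.0 to 224 CPM (median 85.1) in intermediate and 43.4 to 247 CPM (median 100.2) in low bruising tubers, a log2 fold change of -0.33 (SE 0.15, unadjusted p = 0.0279). It was the only transport gene with an unadjusted p below 0.05, beside 5.22% of all genes. With cross as a term none had one, beside 4.72% of all genes. Without cross 2121, StOPT8 had -0.29 (edgeR unadjusted p = 0.0628). A second oligopeptide transporter (PGSC0003DMG400003820) had medians of 0.705 and 1.83 CPM and a log2 fold change of -0.71 (SE 0.38), which was -0.13 (SE 0.31) with cross as a term. The nitrate transporter, the mechanosensitive ion channel gene, which belongs to a family of channels opened by membrane tension, the organic anion transporter and the vacuolar ATP synthase subunit had values between -0.21 and -0.08. The sugar transporter UPA16 (PGSC0003DMG400033693) had medians of 0.714 and 0.343 CPM and a log2 fold change of -0.40 (SE 0.52), although it was higher in 7 of 10 crosses and 16 of 26 intermediate samples lay above the low bruising median. One low bruising sample, progeny 11 of cross 2159, had 43.6 CPM, 54.3% of the summed low bruising CPM. Without it the value was 0.75, and with cross as a term it was 0.26 (SE 0.52).

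Of 5 kinase genes, the auxin-regulated dual specificity kinase (PGSC0003DMG400004363) had medians of 12.6 and 15.1 CPM and a log2 fold change of -0.36 (SE 0.17, unadjusted p = 0.0425). Its fold change was -0.26 with cross as a term and -0.24 without cross 2121 (edgeR unadjusted p = 0.186). The other 4 had values of -0.10 to 0.31 and unadjusted p-values of 0.128 or more. Over all genes, 5.22% had an unadjusted p below 0.05. Among 8 genes of transcription and nucleic acids, the homeodomain leucine zipper gene (PGSC0003DMG400021423), a plant-specific class of transcription factor, had medians of 4.22 and 3.11 CPM. It had 22 of 26 intermediate samples above the low bruising median and a log2 fold change of 0.35 (SE 0.16, unadjusted p = 0.0302). That value was 0.27 with cross as a term and 0.30 without cross 2121 (edgeR unadjusted p = 0.0786). RecA (PGSC0003DMG400008143), of a family of DNA repair recombinases, had a median of 4.16 CPM in each group, a log2 fold change of 0.54 (SE 0.27), and 1 intermediate sample at 78.4 CPM that held 42.1% of the summed intermediate CPM. Without that sample, progeny 1 of cross 2172, the value of RecA was -0.17, and it was 0.20 (SE 0.27) with cross as a term and 0.08 with DESeq2. The AP2/ERF gene (PGSC0003DMG400020625), an ethylene-responsive regulator, and Phi-2 (PGSC0003DMG400025889), a phosphate-induced bZIP factor, had log2 fold changes of 0.16 (SE 0.09) and 0.16 (SE 0.08).

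Among 11 genes of other functions, transmembrane protein 50a (PGSC0003DMG400027793) had the smallest p. Its level was 14.0 to 38.1 CPM (median 25.4) in intermediate and 15.3 to 30.1 CPM (median 21.1) in low bruising tubers. On the log2 scale the difference was 0.22 (SE 0.07, unadjusted p = 0.00145), it was 0.18 without cross 2121, and the gene was higher in 8 of 10 crosses. The N-acetylneuraminate-9-phosphatase gene (PGSC0003DMG400029856) had medians of 31.7 and 25.2 CPM and a log2 fold change of 0.50 (SE 0.18). Its 4 intermediate samples of cross 2121 had 74.0 to 148 CPM, above the highest low bruising sample at 69.9 CPM, and the value was 0.10 without that cross and 0.15 with cross as a term. The pollen allergen Amb a 1.1 gene (PGSC0003DMG400023931), of a pectate lyase family that cuts cell wall pectin, had medians of 3.08 and 2.78 CPM. Its log2 fold change of 0.50 (SE 0.21) became 0.02 without cross 2121.

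The phospholipase gene (PGSC0003DMG400002638) was at 0 in 12 intermediate and 18 low bruising samples, with medians of 0.0613 and 0.0542 CPM. Its log2 fold change was 1.25 (SE 0.50), but -0.13 without cross 2121 and -0.65 (SE 0.44) with cross as a term. It was -0.28 without progeny 7 and 2.17 without progeny 3 of cross 2121. It was the only gene of the list that passed between high and intermediate bruising, at a log2 value of 2.15 for high over intermediate (edgeR adjusted p = 0.0305), where 16 of 25163 genes (0.0636%) passed. Restin (PGSC0003DMG400014585), named after a microtubule-binding protein of animals, had medians of 0.531 and 0.403 CPM but a log2 fold change of -1.23 (SE 0.51), since low bruising samples reached 11.1 CPM and averaged 1.91 CPM against 0.965 CPM. Its value was -1.86 without progeny 14 of cross 2158 and -1.04 without cross 2121 (edgeR unadjusted p = 0.0572). The 16kDa membrane protein gene (PGSC0003DMG400005890) had 1.05 (SE 0.58), and -0.87 (SE 0.43) with cross as a term.

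Genes of unknown function were 12 of the list, and 6 of them had an unadjusted p below 0.05, beside 5.22% of all genes. PGSC0003DMG400029752 on chromosome 1 had 0.284 to 251 CPM (median 8.88) in intermediate and 0 to 30.9 CPM (median 3.73) in low bruising samples. The 4 intermediate samples of cross 2121 had 53.4 to 251 CPM, whereas the highest intermediate sample of cross 2158 had 32.7 CPM. This gave a log2 fold change of 2.01 (SE 0.48, unadjusted p = 7.80e-05, edgeR adjusted p = 0.103), 0.13 without cross 2121 and 0.11 (SE 0.49) with cross as a term. PGSC0003DMG400018614 on chromosome 5 had medians of 32.3 and 20.5 CPM, and 21 of 26 intermediate samples lay above the low bruising median. For this gene the log2 fold change was 0.49 (SE 0.16, unadjusted p = 0.00370) and 0.41 (SE 0.17) with cross as a term. Without cross 2121 it was 0.32 (edgeR unadjusted p = 0.0637). PGSC0003DMG400015948 had 0.44 (SE 0.17), and 0.22 without cross 2121 (unadjusted p = 0.233) and 0.27 (SE 0.17) with cross as a term. PGSC0003DMG400030266 had 1.03 (SE 0.31), and 0.61 without cross 2121 (unadjusted p = 0.0824) and 0.75 (SE 0.33) with cross as a term. PGSC0003DMG400022661 and PGSC0003DMG400025202 had -0.14 (SE 0.06) and -1.03 (SE 0.49), each lower in 8 of 10 crosses. Without cross 2121 they had -0.10 and -1.65, and the second had -1.81 without progeny 7 of that cross and -0.67 without progeny 1 of cross 2170.

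**Figure D2:**
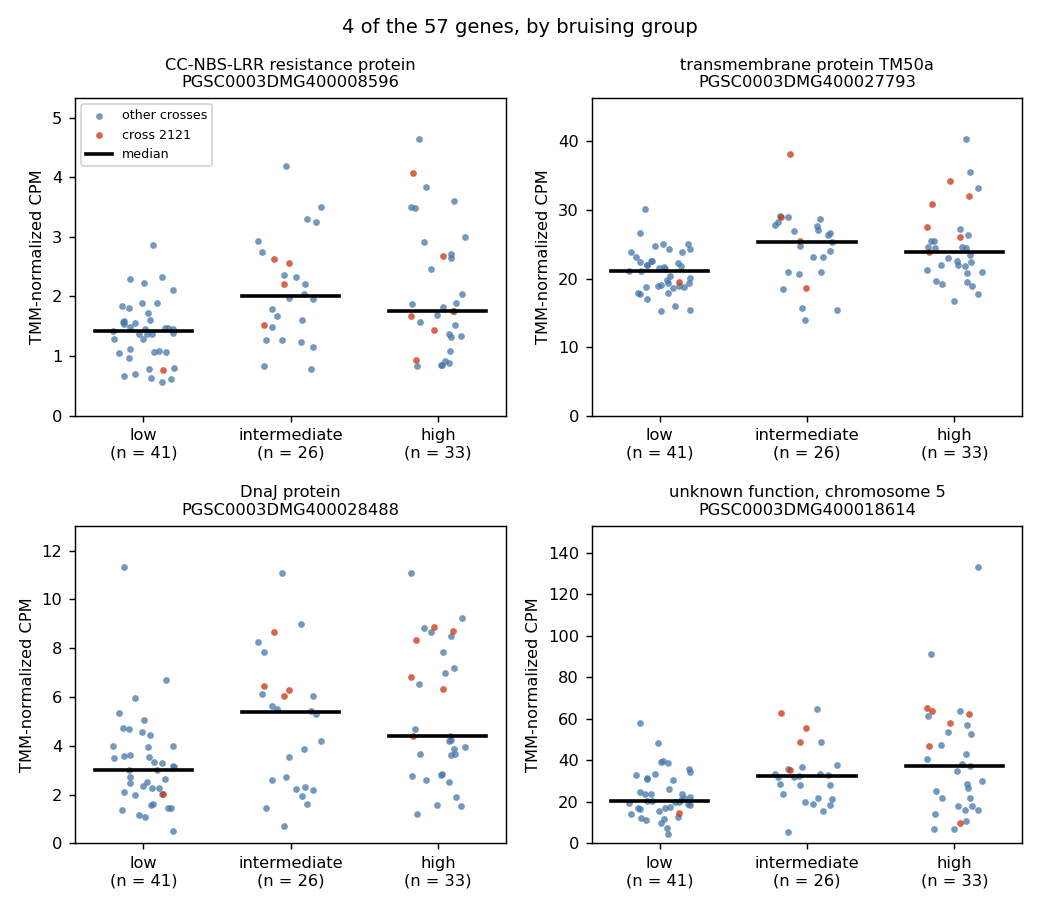
CPM (vertical axes, linear from 0) of 4 of the 57 genes in the low, intermediate and high bruising groups; each point is 1 sample, cross 2121 is in red and the bar is the median. The intermediate median lay above the low bruising median in all 4 panels (2.01 against 1.42 CPM for the CC-NBS-LRR gene), and the groups overlapped.

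The intermediate group was then set beside high bruising for the same 57 genes, in a fit of all 100 samples in 3 groups. The intermediate mean lay between the low and the high mean for 52 of the 57, beside 10140 of all 25163 genes. Both comparisons share the low bruising samples and the list was chosen to separate the outer groups, so nothing is read from this count. Against the midpoint of low and high bruising on the log2 scale, none of the 57 passed, and 5 had an unadjusted p below 0.05, all above the midpoint (2.86% of all genes were above it at this level). These were the CC-NBS-LRR gene (0.30 above the midpoint, unadjusted p = 0.0213), PGSC0003DMG400029752, the SNF2 domain gene, cell division protein kinase 7 and the gene of the Hsp70-interacting protein. For the last 3, the log2 fold changes against low bruising were 0.11 (SE 0.25), -0.03 (SE 0.19) and -0.00 (SE 0.14) for intermediate and -0.95, -0.79 and -0.54 for high bruising. Within single crosses the difference in log2 level between intermediate and low bruising ranged from -1.95 to 0.57 for the SNF2 domain gene and from -2.17 to 1.55 for the kinase gene. Over all genes, 25 (0.0994%) differed from the midpoint, 23 above and 2 below, 10 of the 25 had no reads in 50% or more of the samples, and DESeq2 and limma-voom called 2 and 0.

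**Figure D3:**
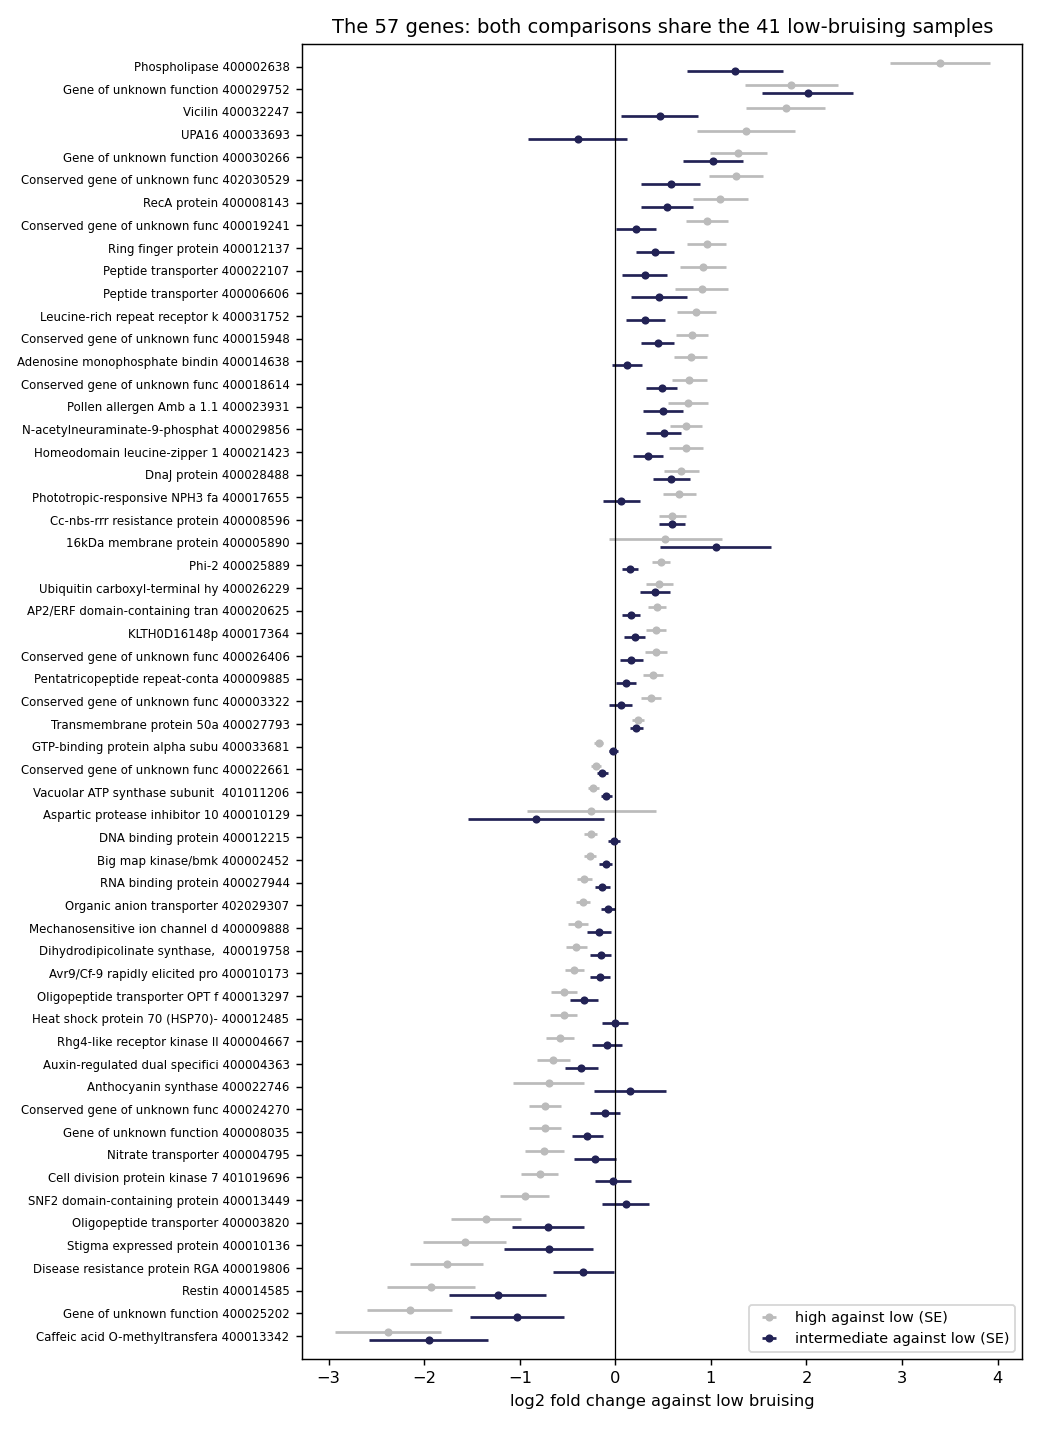
Log2 fold change against low bruising (horizontal axis, bars are standard errors) of each of the 57 genes for the intermediate (dark) and the high bruising group (grey), sorted by the latter. The intermediate values lay between -1.96 (caffeic acid O-methyltransferase II) and 2.01 (PGSC0003DMG400029752), and both comparisons share the same 41 low bruising samples.

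The study also assembled 40 candidate genes of bruising from earlier work, of which 35 were measured. None of the 35 had an unadjusted p below 0.05 between intermediate and low bruising, with or without cross as a term, beside 5.22% of all genes. Log2 fold changes lay between -0.89 and 0.92 with a median of -0.01, and 14 were positive and 21 negative. In every one the groups overlapped. Without progeny 2 of cross 2121, 3 of the 35 (8.57%) had an unadjusted p below 0.05, beside 4.66% of all genes, and without cross 2121 2 had (5.71%), beside 3.95% of all genes. None of these passed the adjusted threshold.

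Polyphenol oxidases, which start the browning reaction, were measured by 6 genes on chromosome 8, a cluster of similar copies whose shared reads STAR does not count. Catechol oxidase B (PGSC0003DMG400029575) had 0.987 to 63.9 CPM (median 21.2) in intermediate and 1.30 to 114 CPM (median 18.4) in low bruising tubers, a log2 fold change of 0.02 (SE 0.26). POT32 (PGSC0003DMG400018916), an isoform expressed in tubers, had 0.998 to 35.3 CPM (median 4.58) against 0.373 to 83.0 CPM (median 4.89). Its log2 fold change was -0.50 (SE 0.36, unadjusted p = 0.172), and it was lower in the intermediate samples of 7 of 10 crosses. High bruising tubers lay above the intermediate group for this gene by 0.95 (unadjusted p = 0.0176, edgeR adjusted p = 0.523), and the intermediate group lay 0.72 below the midpoint of the other groups. Of the 6 genes, 2 had an unadjusted p below 0.05 against high bruising, beside 2037 of all 25163 genes. Against the midpoint 2 had one, beside 1263 of all genes, and of these 2 the intermediate group lay above it for 1 and below it for 1. None of the 6 passed the adjusted threshold in either contrast.

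The polyphenol oxidase gene PGSC0003DMG400018914 had the smallest p of the candidates. It had 0 to 18.7 CPM (median 1.09) in intermediate and 0 to 7.66 CPM (median 0.979) in low bruising tubers, and 3 of the 26 intermediate samples lay above the highest low bruising sample. The fitted log2 fold change was 0.75 (SE 0.38, unadjusted p = 0.0516, edgeR adjusted p = 0.954), 0.94 without cross 2121 (unadjusted p = 0.0169) and 0.67 (SE 0.35) with cross as a term. The rank test gave an unadjusted p of 0.862 for the same gene, and 25.6% of its intermediate CPM came from the 1 intermediate sample of cross 2183. PGSC0003DMG400029576 had 0.0961 to 83.6 CPM (median 16.6) against 0.190 to 92.9 CPM (median 7.51) and a log2 fold change of 0.01 (SE 0.47), and its means were 19.5 and 19.7 CPM. Polyphenol oxidase A (PGSC0003DMG400018917) had medians of 0.357 and 0.237 CPM and -0.34 (SE 0.39). Polyphenol oxidase B (PGSC0003DMG400018925) was at 0 in 21 of 26 and 36 of 41 samples, at no more than 0.502 CPM in any, and had 0.92 (SE 0.88).

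**Figure D4:**
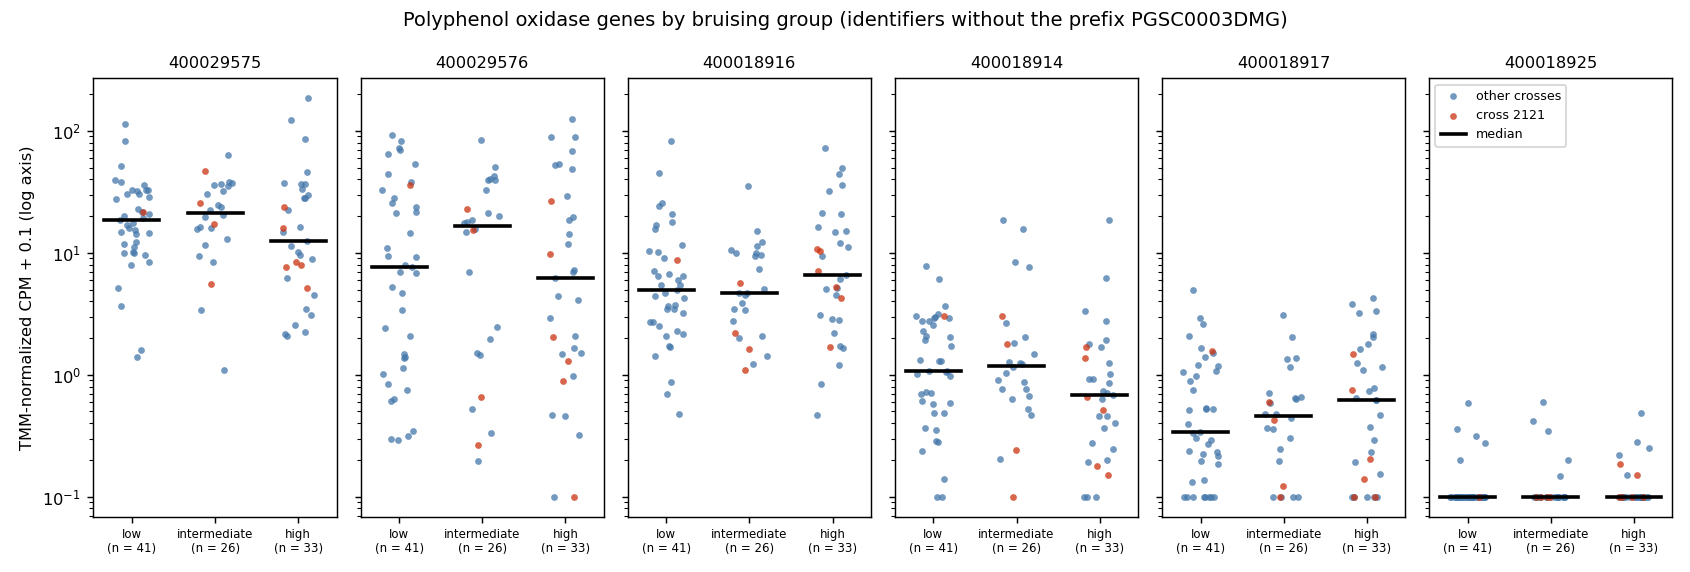
CPM plus 0.1 on a log axis (vertical) of the 6 measured polyphenol oxidase genes in the low, intermediate and high bruising groups; each point is 1 sample, cross 2121 is in red and the bar is the median. Values within a group span more than the distance between group medians in every panel, and POT32 (PGSC0003DMG400018916) had medians of 4.89, 4.58 and 6.49 CPM.

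Genes of the phenylpropanoid pathway, which supplies the phenols, had log2 fold changes of -0.14 to 0.06. Hydroxycinnamoyl quinate transferase (HQT, PGSC0003DMG400011189), which makes chlorogenic acid, had 86.0 to 415 CPM (median 211.5) in intermediate and 112 to 329 CPM (median 245) in low bruising tubers, a log2 fold change of -0.12 (SE 0.11). The 4-coumarate CoA ligases 4CL2 and 4CL, which activate hydroxycinnamic acids, had -0.14 (SE 0.20) and -0.10 (SE 0.16). Phenylalanine ammonia-lyase, the entry enzyme of the pathway, and the peroxidase gene had 0.05 (SE 0.32) and 0.06 (SE 0.31) at medians under 0.5 CPM in either group.

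The 8 protease inhibitor genes and the 5 patatin genes had negative log2 fold changes in the fit without covariates, and none had an unadjusted p below 0.05. The shared sign did not hold in other fits. With cross as a term, 3 of the 8 inhibitors (KTEI at 0.13, KTPI at 0.14 and PKPI-A5 at 0.03) and 1 of the 5 patatins (PAT1-K1 at 0.01) were positive. Leaving out a single sample turned the sign of 4 inhibitors and 2 patatins, and without progeny 7 of cross 2170 CDI had 0.11, KTPI 0.08 and PKPI-A5 0.06. These genes lie in families of near-identical copies, which makes their separate values uncertain, and they were not independent of each other. Among the protease inhibitors, which accumulate in tubers and after wounding, the cysteine protease inhibitor CPI1 (PGSC0003DMG400010139) had 4.01 to 599 CPM (median 15.7) in intermediate and 1.79 to 832 CPM (median 27.8) in low bruising tubers. Its log2 fold change was -0.89 (SE 0.55), and it was -0.16 (SE 0.54) with cross as a term and -1.27 (unadjusted p = 0.0256) without progeny 2 of cross 2121. The miraculin gene KTI-D had -0.45 (SE 0.44), and the other 6 had values of -0.33 to -0.01. Kunitz-type inhibitor KTPI (PGSC0003DMG400009512) had 482 to 8240 CPM (median 3166) against 722 to 11747 CPM (median 2731) and a value of -0.01 (SE 0.22).

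Patatins, the storage glycoproteins of the tuber with a lipid acyl hydrolase activity, had values of -0.56 to -0.01. Patatin 3 (PGSC0003DMG400000766) had 0.179 to 11.1 CPM (median 2.54) in intermediate and 0 to 30.5 CPM (median 4.13) in low bruising tubers, a log2 fold change of -0.56 (SE 0.34). Patatin group O (PGSC0003DMG400029247) had medians of 204 and 253 CPM and -0.16 (SE 0.25). Progeny 2 of cross 2121 had 1441 CPM of it, the highest of all intermediate samples, and without that sample the value was -0.47 (unadjusted p = 0.0417). The same sample had the highest intermediate level of 4 of the 5 patatins.

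The 4 measured lipid genes had positive log2 fold changes in the fit without covariates, but 3 of them were negative with cross as a term (median of the 4, -0.08) and 3 without cross 2121. Phospholipase A1 (PGSC0003DMG401031759), which cleaves fatty acids from membrane lipids, had 0.124 to 90.6 CPM (median 4.35) in intermediate and 0 to 87.9 CPM (median 2.34) in low bruising tubers, a log2 fold change of 0.46 (SE 0.45). Lipoxygenase (PGSC0003DMG400020999), which oxidises polyunsaturated fatty acids, had 52.2 to 8582 CPM (median 584) against 59.7 to 5549 CPM (median 459) and 0.30 (SE 0.37). In both, progeny 2 of cross 2121 had the highest intermediate value, and without it the log2 fold changes were -0.29 and -0.26. Progeny 3 of the same cross had the highest low bruising value, and without that sample they were 1.04 and 0.54. Without the whole cross they were 0.40 and -0.05. The starch genes PHO1A, a plastid phosphorylase, and AGPB1, a subunit of the enzyme that makes ADP-glucose, had 0.04 (SE 0.11) and 0.00 (SE 0.10). The remaining measured starch gene had -0.45 at a mean of 0.125 CPM over the 67 samples. The annexin AN34, of a family of calcium-dependent membrane binding proteins, had 0.14 (SE 0.10), and the other 3 genes of this group had -0.07 to 0.00.

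**Figure D5:**
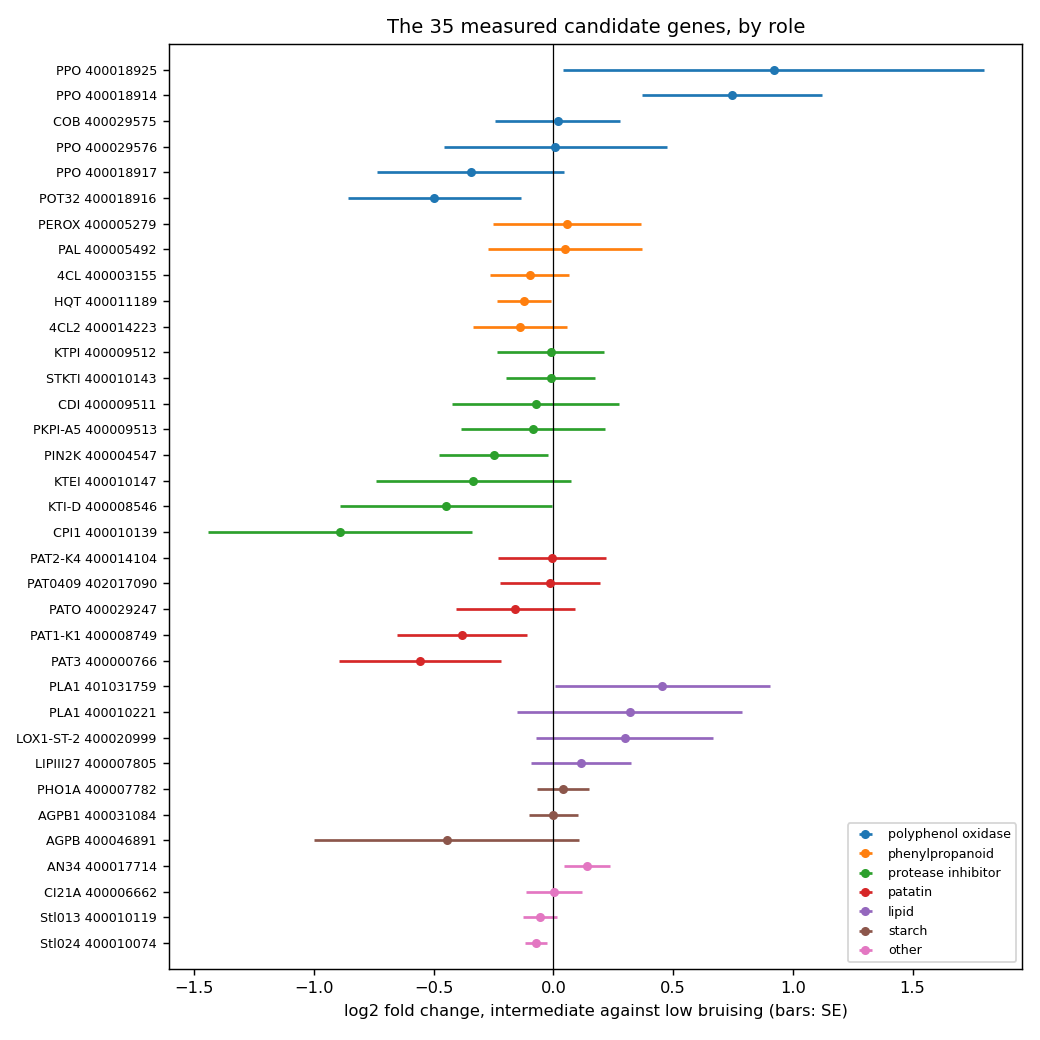
Log2 fold change of intermediate over low bruising (horizontal axis, bars are standard errors) of the 35 measured candidate genes, by role. The values lay between -0.89 (CPI1) and 0.92 (polyphenol oxidase B), and the protease inhibitors and patatins lay below 0 in this fit, but 3 inhibitors and 1 patatin lay above 0 with cross as a term.

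Variance was split by cross and by group. The share of a gene's log2 variance that lay between crosses had a median of 24.8% over the 100 samples. It was 38.4% for the 57 genes and 24.2% for the 35 candidates, beside 29.3% for all genes of at least 1 CPM. Of the 57, 52 had such a level. The 57 were chosen between high and low bruising groups that differed in their crosses. Cross 2165 gave 7 high and 2 low bruising samples, and cross 2170 gave 0 and 7. Nothing is read from their larger share. The share between the intermediate and the low bruising group had a median of 0.585% over the 67 samples. A factor of 11 crosses takes up a larger share than a factor of 2 groups even where neither has an effect, so the shares are not compared. On the first 4 principal components of the 500 most variable genes, cross explained 46.2% to 70.7% of the variance over the 100 samples. The 2 groups explained 0.03% to 2.36% over the 67 samples, and these shares are not compared either. The spread between samples was alike in the groups, with a median SD of 0.44 on the log2 scale in each over 17181 genes.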

How the data were processed

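RNA of 100 potato samples was sequenced by the authors from polyA libraries. Per the study's methods and the labels, read quality was assessed with FastQC 0.11.7, ribosomal reads were removed with SortMeRNA, and reads were trimmed with BBDuk and aligned with STAR 2.6.1 to the PGSC-DM genome. The authors removed genes with low counts and deposited whole-number read counts per gene that STAR gave, without normalization. All 25163 genes and 100 columns were used here. Each gene reached 5 reads in 5 or more samples. Unstranded or stranded counting was not given in the sources used here, so the levels of overlapping genes are less certain.

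The comparison of intermediate with low bruising used edgeR 4.0.16 under R 4.3.3 (TMM, quasi-likelihood F test, Benjamini-Hochberg adjustment over all genes, threshold 0.05, no covariate as in the study). Contrasts with high bruising and with the midpoint used all 100 samples. DESeq2 1.42.0, limma-voom (limma 3.58.1), a Wilcoxon rank-sum test, other scalings and filters, cross, replicate number and log2 total count as terms, and fits without each sample or cross were alternatives. The edgeR, DESeq2 and limma-voom steps were tested on simulated data.

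Total counts of 7774698 to 41650152 limit genes near 1 CPM to few reads. Standard errors and p-values measure the spread between genotypes that were each sequenced once. The members and gene lists were chosen with earlier results of these data known. Genes named are the polyphenol oxidases, list genes with an unadjusted p below 0.05 or among the 3 largest changes per direction and list, and at most 2 unnamed identifiers per direction by smallest p. Other genes are given by their role. Names come from the study's tables. The reference table matched 0 of the identifiers, so no sequences are shown, and 5 of 40 candidate genes were not analysed here.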

Additional observations from a re-analysis of the deposited data

How the results depend on the processing

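The number of genes called between intermediate and low bruising was 6, and it was 4 to 6 under 9 of the alternatives (RLE size factors, total count only, removal of the 50 most abundant genes, robust dispersions, DESeq2 without outlier handling, cross as a term, log2 total count as a term, and the replicate number as a term with or without cross). Similar numbers were not always the same genes. Of the 6, 1 was called with cross as a term, 1 with replicate number and cross, and 2 with DESeq2 without outlier handling. With log2 total count as a term 4 were called, with robust dispersions 5, and with the other scalings or the 50 genes removed all 6. The number called was 0 with DESeq2, limma-voom, the Wilcoxon test and the second reading of the low-count filter, 3 with filterByExpr, 2 in crosses 2155, 2158 and 2159 alone, 17 with edgeR's legacy dispersions (12 higher and 5 lower), 16 with all 100 samples in 3 groups, and 17 and 2 at thresholds of 0.1 and 0.01. Fits without 1 sample called 4 to 19 genes and fits without 1 cross 0 (cross 2158) to 22 (cross 2168). The causes were not tested. The contrast with the midpoint called 25 genes, and 2 with DESeq2, 0 with limma-voom, 6 with filterByExpr and 5 with cross as a term. High against intermediate bruising called 16 genes, and 2, 1, 3 and 8 under the same alternatives. The difference in log2 total count kept its direction, at 0.14 to 0.26 without each cross.

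The log2 fold change of the phospholipase gene PGSC0003DMG400002638 turned to -0.65 with cross as a term and to -0.88 with the replicate block and cross, and that of the pollen allergen gene PGSC0003DMG400023931 to -0.057 in crosses 2155, 2158 and 2159 alone. Leaving aside fits without a sample or a cross, these were the 3 of 369 recomputed values, over 24 genes, that changed sign. Fits without a sample or a cross changed other signs among the 24. PGSC0003DMG400010283 was at -0.42 without progeny 4 of cross 2158, and PGSC0003DMG400022822 at 1.24 without progeny 3 of cross 2121. The 16kDa membrane protein gene, not among the 24, also changed sign with cross as a term. Values could move without a change of sign, as for PGSC0003DMG400029752, at 2.01 and, with cross as a term, 0.11. The replicate number as a block called 4 genes (3 higher and 1 lower), 2 of them among the 6. With this term PGSC0003DMG400011251 had a log2 fold change of 4.16 (edgeR adjusted p = 0.0631). Replicate numbers 1 and 2 were held by 12 and 14 intermediate and by 27 and 14 low bruising samples. The labels do not say what samples of the same number shared, and this was not tested. Deviations of samples correlated at a mean of 0.01 for the same number and -0.01 for the other number. Of 26 intermediate samples, 10 correlated best with their own number and 21 with their own cross. Depth limits genes near 1 CPM, and 1 sample per genotype leaves variation between plants unmeasured.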
